A study of Homo sapiens with 12 samples.

Results

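The annexins are a family of calcium-dependent phospholipid-binding proteins, and their polysome-associated mRNAs were followed across 6 groups of triple-negative breast cancer (TNBC) cells in which TRMT112 had been lowered or raised. The members are the 10 symbols ANXA1 to ANXA8, ANXA10 and ANXA11, of 24559 gene symbols in the table, and the transcripts of each symbol were summed. They were picked by name with their values in these libraries already known, so the levels and changes below describe the family and serve as no independent evidence about it. Of the 10 members, 9 had enough counts to be tested among 16538 genes, and ANXA10 did not.

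Polysome-associated RNA is the RNA from the heavy fractions of a sucrose gradient, where an mRNA is bound by several ribosomes. MDA-MB-231 and SUM159 cells carried a TRMT112 shRNA in the GIPZ vector (TRMT112 KD) or its control under puromycin, and BT549 cells carried the TRMT112 open reading frame in pReceiver-M02 (TRMT112 OE) or the empty vector under G418. The control is labelled EV CTRL in all 3 lines, whereas the study's methods describe a non-silencing shRNA for the KD lines, and all 12 libraries, 2 per group, are labelled as untreated. TRMT112 is the small partner protein that several methyltransferases of rRNA, tRNA and translation factors need, and the comparisons ask how polysome-associated mRNAs differ when it is lowered or raised. BT549 differed from the other lines in vector, selection and medium as well as in TRMT112. By the study's methods, insulin and hydrocortisone, a glucocorticoid, were in the SUM159 medium but not in that of MDA-MB-231 or BT549. Line, medium, vector and selection therefore cannot be told apart between lines, and there are no libraries of total RNA here, so the amount of an mRNA and its loading with ribosomes cannot be told apart either. Values below are scaled to a common library size, so they give relative levels within polysome-associated RNA, not amounts per cell. The study reports smaller polysome peaks with KD in both KD lines and larger ones with OE. Nothing states that the 2 libraries of a group came from separate cultures, and the p-values then measure only the spread between these libraries, which may be technical.

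Library totals ran from 22954226 to 27434677 expected counts. TRMT112, given as CPM (counts scaled to a common library size by TMM), was 173 and 165 in MDA-MB-231 EV against 73.8 and 70.4 in KD, 265 and 275 in SUM159 EV against 163 and 155 in KD, and 129 and 129 in BT549 EV against 179 and 181 in OE. It was lower in every KD library and higher in every OE library than in the matched EV libraries, with log2 fold changes of -1.23 ± 0.04, -0.76 ± 0.04 and 0.48 ± 0.04 (fitted value ± SE). The mesenchymal markers VIM and CD44 lay between 704 and 1986 CPM and between 178 and 779 CPM in the 12 libraries. PGR reached at most 0.42 CPM, CDH1 at most 2.66 and EPCAM at most 3.02. ESR1 had no listed transcript, which says nothing about MDA-MB-231 or SUM159, since the table lists no transcript at 0 in every BT549 library. The keratins KRT8 and KRT18 were high in MDA-MB-231 and SUM159 (183 CPM or more) and at most 0.74 CPM in BT549. Among markers of other cell types, PTPRC reached at most 0.58 CPM, PECAM1 4.30 and ALB 0.18, whereas CD68 ran from 6.81 to 199 CPM. The markers CD3E and VWF had no listed transcript, with the same limit as ESR1.

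Annexins share a conserved core of repeats that binds calcium and, through it, acidic phospholipids such as phosphatidylserine on the inner face of the plasma membrane, and they differ mainly in their N-terminal tails, which bind partner proteins. ANXA2 with S100A10 forms a heterotetramer that carries plasminogen and its activators at the cell surface, ANXA1 (lipocortin) is induced by glucocorticoids and signals through formyl peptide receptors, and ANXA5 binds phosphatidylserine exposed on dying cells. Several annexins, among them ANXA1, ANXA2, ANXA4, ANXA5 and ANXA6, gather at wounded plasma membrane and take part in its repair. In breast cancer the family is studied for its links to invasion and proteolysis at the cell surface.

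On GRCh38, 3 members lie on chromosome 10, namely ANXA7 at chr10:73375101-73414076, ANXA8 at chr10:47460162-47484158 and ANXA11 at chr10:80150889-80205572, all on the minus strand. Another 3 lie on chromosome 4, namely ANXA3 at chr4:78551747-78610451 and ANXA10 at chr4:168092537-168187736 on the plus strand and ANXA5 at chr4:121667946-121696995 on the minus strand. ANXA1 lies at chr9:73151865-73170393 and ANXA4 at chr2:69644425-69827112 on the plus strand, and ANXA2 at chr15:60347134-60402883 and ANXA6 at chr5:151100706-151157815 on the minus strand. In GENCODE 44 the exons of ANXA7 overlap those of 1 gene on the opposite strand, and the exons of the other members overlap no other gene.

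Pieces of sequence matter for reading these counts. ANXA8 has a close copy, ANXA8L1, with no listed transcript in the table. The coding sequences of ANXA8-205 and ANXA8L1-201 were identical at 976 of the 981 ANXA8 bases (99.5%), while the ANXA8L1-201 coding sequence, of 1095 bases, holds 114 bases with no counterpart, and 87.4% of the 31-base windows and 57.2% of the 150-base windows of the ANXA8-205 transcript also occurred in ANXA8L1 transcripts. A stretch that tells the copies apart is shown here because most others do not. It holds coding bases 499 to 558 of ANXA8, counted from the start codon and read 5′ to 3′ from GENCODE 44 transcripts, and spans an exon junction within chr10:47474393-47474998 (minus strand) for ANXA8 and chr10:46384780-46385385 (plus strand) for ANXA8L1. Capitals mark the 2 mismatched bases.
ANXA8: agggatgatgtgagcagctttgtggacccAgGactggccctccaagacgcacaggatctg
ANXA8L1: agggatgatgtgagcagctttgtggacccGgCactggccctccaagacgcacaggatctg
Counts named ANXA8 can therefore hold reads of either copy. They rest on 3 listed of 8 annotated ANXA8 transcripts, and any counts of the rows not listed are left out. ANXA2-204 shared 46.5% of its 31-base windows but 8.19% of its 150-base windows with the processed copy ANXA2P2. The main transcripts of the 10 members shared no 31-base window with one another.

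A pair of members carries a cassette exon that keeps the reading frame, shown because the listed transcripts with and without it split the counts of these genes. Both exons lie on the minus strand of GRCh38 and are read 5′ to 3′. The ANXA7 exon, of 66 bases or 22 codons, lies at chr10:73396044-73396109, in the part of the gene that codes for the N-terminal tail, and the longer protein with it is known from muscle and brain. The ANXA6 exon, of 18 bases or 6 codons, lies at chr5:151110627-151110644, in the part that codes for the second of its cores.
ANXA7 exon: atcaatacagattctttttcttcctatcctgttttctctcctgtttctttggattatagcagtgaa
ANXA6 exon: gtggctgctgagatcttg

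Levels of different annexins were compared per length, as TPM (expected counts over transcript length, scaled to a common total), in the EV libraries. ANXA2 led in MDA-MB-231 EV with 1931 ± 45.4 TPM and in SUM159 EV with 1882 ± 4.37 TPM (mean ± SD, n = 2), while in BT549 EV ANXA5 led with 1349 ± 10.2 TPM over ANXA2 with 1175 ± 6.97 TPM. ANXA2 thus held 50.2% of the summed annexin TPM in MDA-MB-231 EV, 63.9% in SUM159 EV and 34.1% in BT549 EV. In MDA-MB-231 EV the order ran on through ANXA1 (677 ± 5.88 TPM), ANXA5 (412 ± 9.57), ANXA3 (244 ± 2.49), ANXA6 (191 ± 2.27), ANXA7 (174 ± 2.84), ANXA11 (120 ± 7.25) and ANXA4 (99.7 ± 4.84). In SUM159 EV it ran through ANXA5 (335 ± 7.17 TPM), ANXA1 (214 ± 3.66), ANXA8 (154 ± 4.87), ANXA11 (121 ± 3.94), ANXA7 (111 ± 0.54), ANXA4 (83.2 ± 1.69), ANXA6 (40.6 ± 1.49) and ANXA3 (2.00 ± 0.03). In BT549 EV, ANXA1 (323 ± 2.10 TPM), ANXA11 (287 ± 5.87), ANXA4 (183 ± 4.26), ANXA7 (101 ± 4.68) and ANXA6 (25.9 ± 0.98) followed, and ANXA3, ANXA8 and ANXA10 were each under 1 TPM. In each of these 3 EV groups the libraries of neighbours in the order did not overlap, with 1 exception. ANXA8 and ANXA10 in BT549 EV were both at 0 TPM in a library. The order depends on the length assigned to each gene: with the longest transcript in place of the listed ones, ANXA3 fell behind ANXA6 and ANXA7 in MDA-MB-231 EV and ANXA8 passed ANXA1 in SUM159 EV.

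**Figure D1:**
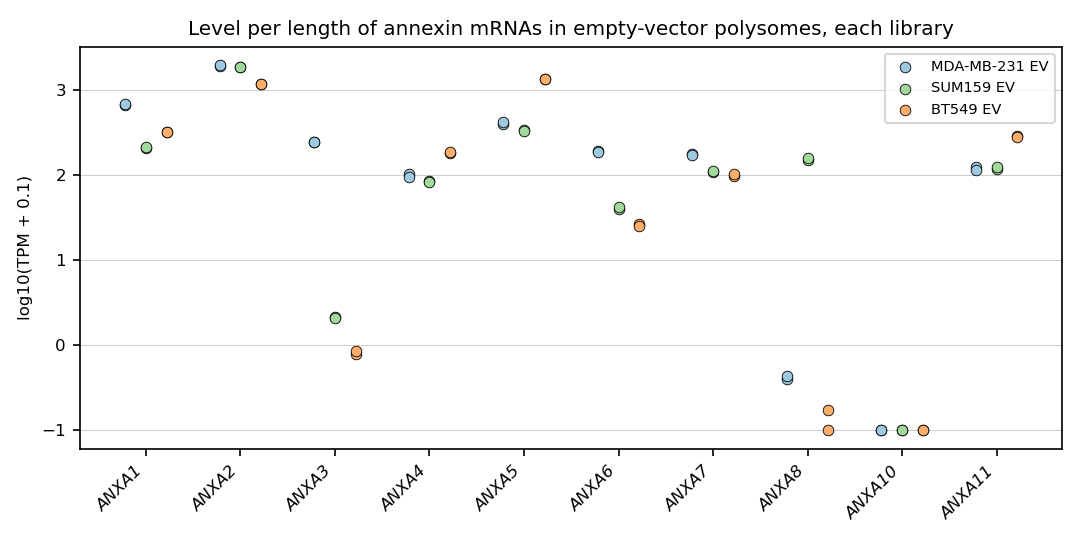
The vertical axis gives log10(TPM + 0.1) for each annexin on the horizontal axis, with each point a library of the EV group named by its color. ANXA2 led in MDA-MB-231 and SUM159 and ANXA5 in BT549, while ANXA3 was high in MDA-MB-231 alone of the 3 EV groups and ANXA8 in SUM159 alone.

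ANXA3 and ANXA8 separated the lines most, each being abundant in 1 line and low in the others. ANXA3 counts were 4263 and 4444 in MDA-MB-231 EV, 38 and 38 in SUM159 EV and 14 and 15 in BT549 EV. Scaled for library size, MDA-MB-231 EV held 105 times the ANXA3 counts of SUM159 EV (95% interval 84.1 to 134, counting error only) and 253 times those of BT549 EV (176 to 378). ANXA8 counts were 4004 and 4255 in SUM159 EV, 7 and 9 in MDA-MB-231 EV and 2 and 0 in BT549 EV. The ratio of SUM159 EV to MDA-MB-231 EV was 561 (345 to 982), and that to BT549 EV was 3778 (1045 to 31199). A count of 0 allows up to 3 counts, which was 0.109 to 0.142 CPM in these libraries. Reads carry no molecular identifiers, so intervals and floors cover counting error only.

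The summed annexin level, as a share of all TPM, moved in opposite directions in the KD lines. It was 3850 ± 46.2 TPM in MDA-MB-231 EV and 5026 ± 39.7 in KD, 2943 ± 9.97 in SUM159 EV and 1499 ± 14.2 in KD, and 3445 ± 7.42 in BT549 EV and 3171 ± 51.0 in OE (mean ± SD, n = 2). In MDA-MB-231, where ANXA2 made up most of the sum, both KD libraries lay above both EV libraries, and in SUM159 both lay below. In BT549 the OE libraries lay below the EV libraries, ANXA2 being higher and ANXA5 lower, and the gap was wider with the longest transcript of each gene (3489 in EV and 2923 in OE).

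Calls were made by edgeR's quasi-likelihood test with Benjamini-Hochberg adjustment over all genes, at an adjusted p under 0.05. By this test, TRMT112 KD in MDA-MB-231 came with higher relative levels of 9 of the 9 tested annexins and lower ones of 0. Over all genes tested, 21.2% were called higher and 16.5% lower in this comparison. The table lists no transcript at 0 in every BT549 library. Transcripts seen only in MDA-MB-231 or SUM159 are therefore missing from all such shares and from the library totals. In SUM159 KD, 2 members (ANXA3 and ANXA11) were called higher and 7 lower, where 28.6% of all genes were called higher and 31.4% lower. In BT549 OE, 2 members (ANXA2 and ANXA6) were called higher, 6 lower and 1 (ANXA8) was not called, where 35.6% of all genes were called higher and 35% lower. The median log2 fold change of the tested members was 0.28 in MDA-MB-231 KD, -0.48 in SUM159 KD and -0.53 in BT549 OE, beside medians over all genes of 0, 0 and 0.02. Since the members were chosen with these values known, the shares of all genes are printed beside the counts and nothing is read from them. With scaling by library size only, 6 of the 9 members were called higher in MDA-MB-231 KD, ANXA1, ANXA3 and ANXA4 losing the call, and the share of higher genes among all genes called there went from 56.2% to 36.7%.

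**Figure D2:**
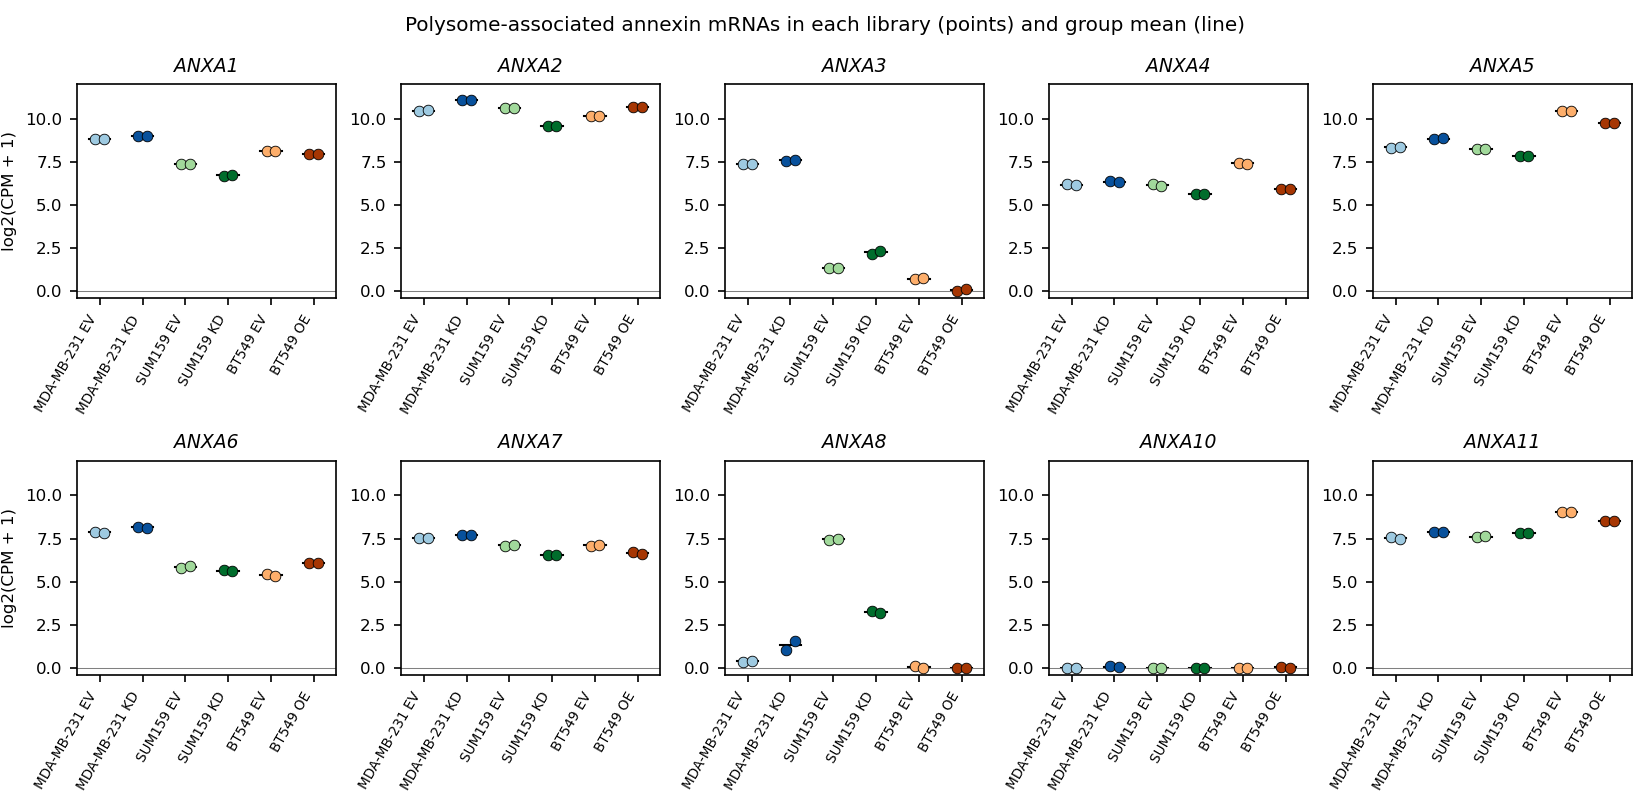
Each panel plots log2(CPM + 1) of an annexin in every library, with a point per library, a line at the group mean and the 6 groups along the horizontal axis. ANXA2 and ANXA5 lay above EV in MDA-MB-231 KD but below EV in SUM159 KD, ANXA8 was abundant in SUM159 EV and low in KD, and ANXA10 stayed at the floor in all 12 libraries.

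The KD effects themselves were compared by the contrast of KD minus EV in MDA-MB-231 against the same in SUM159. The difference was called higher for 7 members and lower for 1 (ANXA3), where 27.7% of all genes were called higher and 23.2% lower, and it was not called for ANXA11. Thus ANXA1, ANXA2, ANXA4, ANXA5, ANXA6, ANXA7 and ANXA8 rose with KD in MDA-MB-231 but fell with KD in SUM159. ANXA3 and ANXA11 were higher with KD in both lines.

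ANXA2, the partner of S100A10 and the most abundant annexin per length in 5 of the 6 groups (with the longest transcript of each gene, ANXA5 led in BT549 OE too), carried much of the summed change in the KD lines. In MDA-MB-231 its CPM was 1401 and 1441 in EV against 2227 and 2235 in KD, in SUM159 1587 and 1611 in EV against 777 and 771 in KD, and in BT549 1153 and 1135 in EV against 1683 and 1660 in OE. The EV libraries of the 3 lines lay within 1135 to 1611 CPM, and the KD or OE libraries lay clear of their EV libraries in each line. The log2 fold change was 0.65 ± 0.02 in MDA-MB-231 KD, -1.05 ± 0.02 in SUM159 KD and 0.55 ± 0.02 in BT549 OE (± SE), which is 1.57-fold higher, 2.07-fold lower and 1.46-fold higher. ANXA2 was therefore higher both with KD in MDA-MB-231 and with OE in BT549. The processed copy ANXA2P2 stayed at 1.27 to 3.96 CPM and its log2 fold changes were 0.60 ± 0.24, -1.14 ± 0.27 and 0.26 ± 0.27 in the same order, of which only the SUM159 change was called.

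The transcripts behind ANXA2 differed between groups as well. ANXA2-204 held 66.8% and 65.4% of the ANXA2 counts in MDA-MB-231 EV against 69.3% and 69.1% in KD, 74.2% and 74.8% in SUM159 EV against 67.9% and 66.8% in KD, and 75.8% and 74.6% in BT549 EV against 85.4% and 84.9% in OE. The share of ANXA2-203 was 29.6% and 31.1% in MDA-MB-231 EV but 16.8% and 17.2% in BT549 EV, and 8.66% and 8.33% in BT549 OE. These shares rest on the division of reads between similar transcripts by the authors' counting, whose error is not given, and they were not tested.

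ANXA1, the glucocorticoid-induced annexin, changed less. Its CPM was 459 and 464 in MDA-MB-231 EV against 516 and 507 in KD, 164 and 170 in SUM159 EV against 103 and 107 in KD, and 286 and 287 in BT549 EV against 253 and 251 in OE. It was highest in MDA-MB-231 and lowest in SUM159, and within each line the groups did not overlap. The log2 fold changes were 0.15 ± 0.03, -0.67 ± 0.03 and -0.18 ± 0.03. Nearly all ANXA1 counts (98.4% to 99.9%) fell on ANXA1-201.

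ANXA5, which binds exposed phosphatidylserine, stood out in BT549. Its CPM was 1391 and 1398 in BT549 EV against 853 and 874 in OE, against 322 and 331 in MDA-MB-231 EV, 459 and 468 in MDA-MB-231 KD, 307 and 301 in SUM159 EV and 226 and 234 in SUM159 KD. Both BT549 groups lay above every library of the other lines. The log2 fold changes were 0.51 ± 0.03 in MDA-MB-231 KD, -0.40 ± 0.03 in SUM159 KD and -0.69 ± 0.03 in BT549 OE. ANXA5-201 carried 98.5% to 99.7% of its counts.

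ANXA4, an annexin of epithelial membranes, had the largest fold decrease in BT549 OE among members above the floor in both groups. Its CPM was 176 and 166 in BT549 EV against 59.3 and 60.7 in OE, 73.5 and 71.3 in MDA-MB-231 EV against 83.7 and 79.9 in KD, and 72.8 and 67.5 in SUM159 EV against 50.3 and 50.1 in KD. The BT549 OE libraries thus fell below the EV libraries of all 3 lines. The log2 fold change was -1.51 ± 0.05 in BT549 OE (2.85-fold lower) and -0.48 ± 0.05 in SUM159 KD. In MDA-MB-231 KD it was 0.18 ± 0.05 (edgeR adjusted p = 0.0051), and the call was lost without MDA-MB-231 EV replicate 2 (edgeR adjusted p = 0.0537) or without KD replicate 1 (edgeR adjusted p = 0.0795). ANXA4-201 and ANXA4-202 divided most of its counts, with 42.4% to 58.1% on the former.

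ANXA6, the annexin with a doubled core, was a feature of MDA-MB-231. Its CPM was 234 and 230 in MDA-MB-231 EV against 285 and 280 in KD, 54.0 and 58.1 in SUM159 EV against 49.9 and 48.3 in KD, and 42.6 and 39.6 in BT549 EV against 66.5 and 67.4 in OE. Every MDA-MB-231 library lay above every library of the other lines, and in BT549 the OE libraries lay above EV. The log2 fold changes were 0.28 ± 0.04, -0.19 ± 0.05 and 0.70 ± 0.05. With ANXA2, ANXA6 was 1 of the 2 members higher both in MDA-MB-231 KD and in BT549 OE.

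ANXA7 and ANXA11 have long N-terminal tails rich in glycine and proline. ANXA7 was 183 and 181 CPM in MDA-MB-231 EV against 213 and 208 in KD, 134 and 139 in SUM159 EV against 93.3 and 92.0 in KD, and 136 and 141 in BT549 EV against 104 and 96.7 in OE. Its log2 fold changes were 0.21 ± 0.04, -0.56 ± 0.04 and -0.46 ± 0.04, so that ANXA7 was lower both with KD in SUM159 and with OE in BT549. ANXA11, an RNA-granule tether known from amyotrophic lateral sclerosis, was 192 and 181 CPM in MDA-MB-231 EV against 232 and 231 in KD, 188 and 197 in SUM159 EV against 227 and 224 in KD, and 536 and 518 in BT549 EV against 369 and 359 in OE. It went up in both KD lines and down in the OE line, with log2 fold changes of 0.31 ± 0.03, 0.23 ± 0.04 and -0.53 ± 0.03. The KD effects on ANXA11 differed by 0.08 ± 0.05 between the lines, which was not called (edgeR adjusted p = 0.169). ANXA11 was the only tested member called higher in both KD lines and lower in the OE line apart from ANXA3, whose BT549 counts were near the floor.

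**Figure D3:**
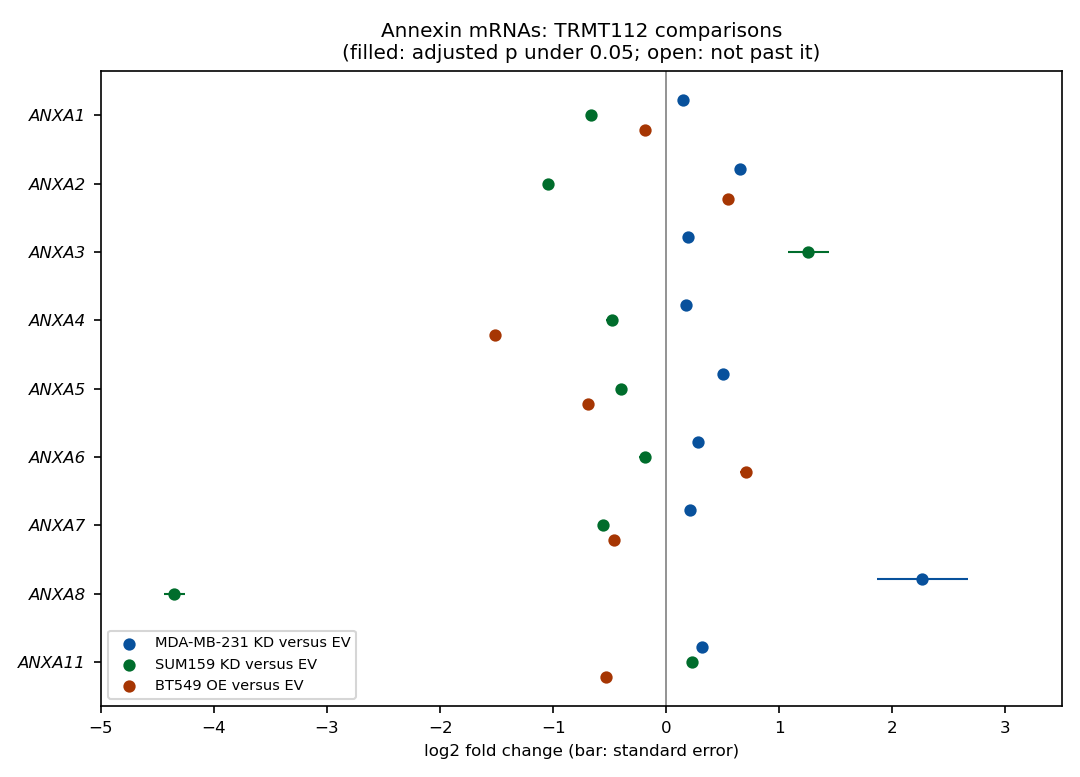
The horizontal axis gives the log2 fold change of each annexin in the 3 TRMT112 comparisons, with bars for the SE (hidden by the point where short). MDA-MB-231 KD points lie to the right of 0 and most SUM159 KD points to the left, with ANXA8 at -4.35, and ANXA3 and ANXA8 are not drawn for BT549 because the OE or EV libraries held 3 counts or fewer in all.

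ANXA8 was the most changed member. Its counts were 4004 and 4255 in SUM159 EV against 212 and 226 in KD, that is 169 and 179 CPM against 8.94 and 8.18 CPM. The KD libraries lay 20.4-fold below EV (log2 fold change -4.35 ± 0.09). In MDA-MB-231, where ANXA8 was scarce, the counts were 7 and 9 in EV against 26 and 50 in KD. That is a ratio of 4.87 with a 95% counting interval of 2.81 to 8.95 and a log2 fold change of 2.26 ± 0.40, which ran from 1.70 to 2.68 when each library was left out in turn. Even so, MDA-MB-231 KD held at most 2.01 CPM. In BT549 the counts were 2 and 0 in EV against 0 and 0 in OE, so no fold is given. In SUM159, ANXA8-205 carried 93.8% to 97.0% of the ANXA8 counts.

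ANXA3, which is abundant in MDA-MB-231, moved little there. Its CPM was 168 and 170 in EV against 187 and 198 in KD, with a log2 fold change of 0.19 ± 0.04. In SUM159 its counts were 38 and 38 in EV against 85 and 112 in KD, a log2 fold change of 1.26 ± 0.18 from a low level. In BT549 they were 14 and 15 in EV against 0 and 2 in OE, an EV to OE ratio of 14.3 with a 95% counting interval of 3.61 to 123. ANXA3 was called higher in SUM159 KD and lower in BT549 OE, but both lines stayed under 5 CPM. ANXA10, an annexin of gastric epithelium, had counts of 2 and 1 in MDA-MB-231 KD, 1 in a BT549 OE library and 0 in the other 9 libraries. ANXA9, outside the members, had 2 to 20 counts per library, and its log2 fold changes of 0.33 ± 0.56, 0.80 ± 0.65 and 0.43 ± 0.88 were not called. ANXA13, ANXA8L1 and the pseudogenes ANXA2P1 and ANXA2P3 had no listed transcript and were not analysed here. The table lists no transcript at 0 in all 4 BT549 libraries, so a missing row says nothing about the other lines. This also holds for single transcripts of a member, as 3 of 8 annotated transcripts of ANXA8 and 7 of 10 of ANXA3 were listed. Their sums and ratios in MDA-MB-231 and SUM159 may therefore be incomplete.

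The share of transcripts with the cassette exon, compared per length over the listed transcripts with or without it, was steady for ANXA7 in MDA-MB-231 and varied elsewhere. It was 18.4% and 17.8% in MDA-MB-231 EV against 18.8% and 19.0% in KD, 20.6% and 19.6% in SUM159 EV against 22.3% and 31.1% in KD, and 18.2% and 27.3% in BT549 EV against 24.4% and 28.0% in OE. The KD libraries lay above EV in both KD lines, but the gap in MDA-MB-231 was under 2 percentage points and the SUM159 KD libraries differed from each other by more than the lower of them differed from EV. In BT549 the groups overlapped. For ANXA6 the share was 54.9% and 56.3% in MDA-MB-231 EV against 56.2% and 58.1% in KD, 58.8% and 65.5% in SUM159 EV against 62.2% and 71.5% in KD, and 65.9% and 82.5% in BT549 EV against 69.1% and 64.6% in OE, with overlapping groups in all 3 lines. With 2 libraries per group, a move in the ANXA6 exon share could not be told from this spread, and none was tested.

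**Figure D4:**
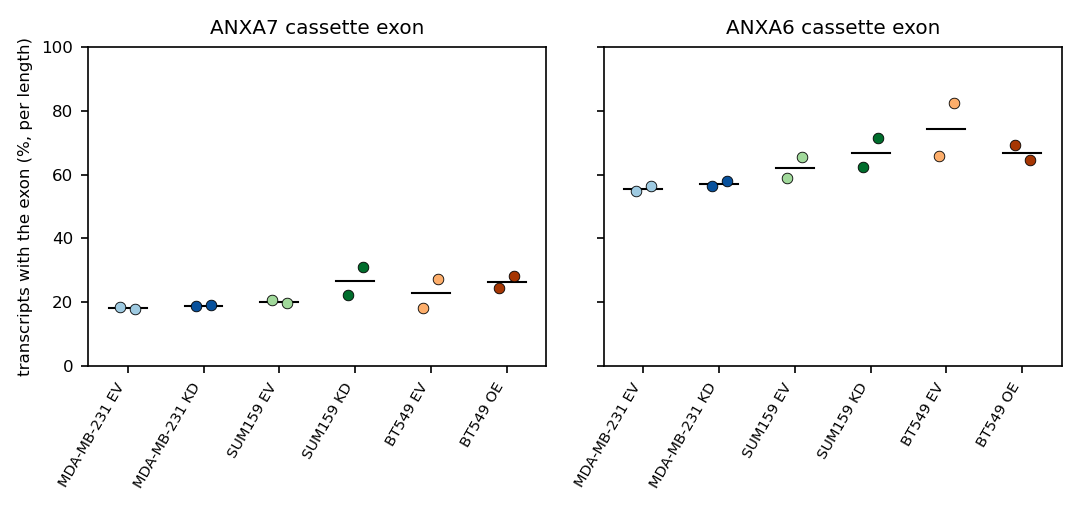
The vertical axis gives the percent of transcripts, per length, that hold the cassette exon of ANXA7 (left) and ANXA6 (right), with a point per library and a line at the group mean. ANXA7 lay between 17.8% and 31.1% and ANXA6 between 54.9% and 82.5%, with the BT549 EV replicates at 18.2% and 27.3% for ANXA7 and at 65.9% and 82.5% for ANXA6.

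Of 9 partner mRNAs tested, 4 were called higher and 2 lower in MDA-MB-231 KD, 7 and 2 in SUM159 KD, and 4 and 4 in BT549 OE, beside 21.2% and 16.5%, 28.6% and 31.4%, and 35.6% and 35% of all genes in the same order, with median log2 fold changes of 0.08, 0.23 and -0.01. S100A10, the ANXA2 partner, was 207 and 216 CPM in MDA-MB-231 EV against 267 and 262 in KD, 443 and 454 in SUM159 EV against 518 and 524 in KD, and 271 and 274 in BT549 EV against 329 and 315 in OE. It was higher in all 3 comparisons (0.32 ± 0.03, 0.22 ± 0.03 and 0.24 ± 0.03 on the log2 scale), whereas ANXA2 was lower in SUM159 KD. S100A11, the ANXA1 partner, was 193 and 187 CPM in MDA-MB-231 EV against 222 and 206 in KD, 301 and 323 in SUM159 EV against 366 and 365 in KD, and 663 and 644 in BT549 EV against 340 and 324 in OE. Its log2 fold changes were 0.17 ± 0.04, 0.23 ± 0.04 and -0.98 ± 0.04, which put S100A11 opposite to ANXA1 in SUM159.

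S100A4, a metastasis-associated ligand of ANXA2, was 147 and 164 CPM in SUM159 EV against 436 and 441 in KD (2.83-fold higher), but at most 12.3 CPM in the other lines, where it changed by -0.67 ± 0.26 in MDA-MB-231 KD and 1.20 ± 0.13 in BT549 OE. S100A6, which binds several annexins, changed by -0.24 ± 0.04, 0.60 ± 0.04 and -0.85 ± 0.04 in MDA-MB-231 KD, SUM159 KD and BT549 OE. AHNAK, the giant scaffold bound by ANXA2 with S100A10, changed by 0.15 ± 0.04, 0.70 ± 0.03 and -0.12 ± 0.05. PDCD6 (ALG-2), which binds ANXA7 and ANXA11, was called higher in SUM159 KD (0.55 ± 0.04) and BT549 OE (0.61 ± 0.04), and its value in MDA-MB-231 KD was 0.08 ± 0.05. Sorcin (SRI), a calcium-binding partner of ANXA7, was called higher in the same comparisons, by 0.09 ± 0.03 and 0.59 ± 0.04, with -0.03 ± 0.03 in MDA-MB-231 KD. The ANXA6 partners TBC1D15 and RASA1, which regulate small GTPases, were lower in SUM159 KD, with log2 fold changes of -1.04 ± 0.09 and -0.79 ± 0.05. In BT549 OE TBC1D15 was lower (-1.52 ± 0.09) and RASA1 was at -0.01 ± 0.05, and in MDA-MB-231 KD they were at -0.10 ± 0.08 and, called higher, 0.17 ± 0.05.

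**Figure D5:**
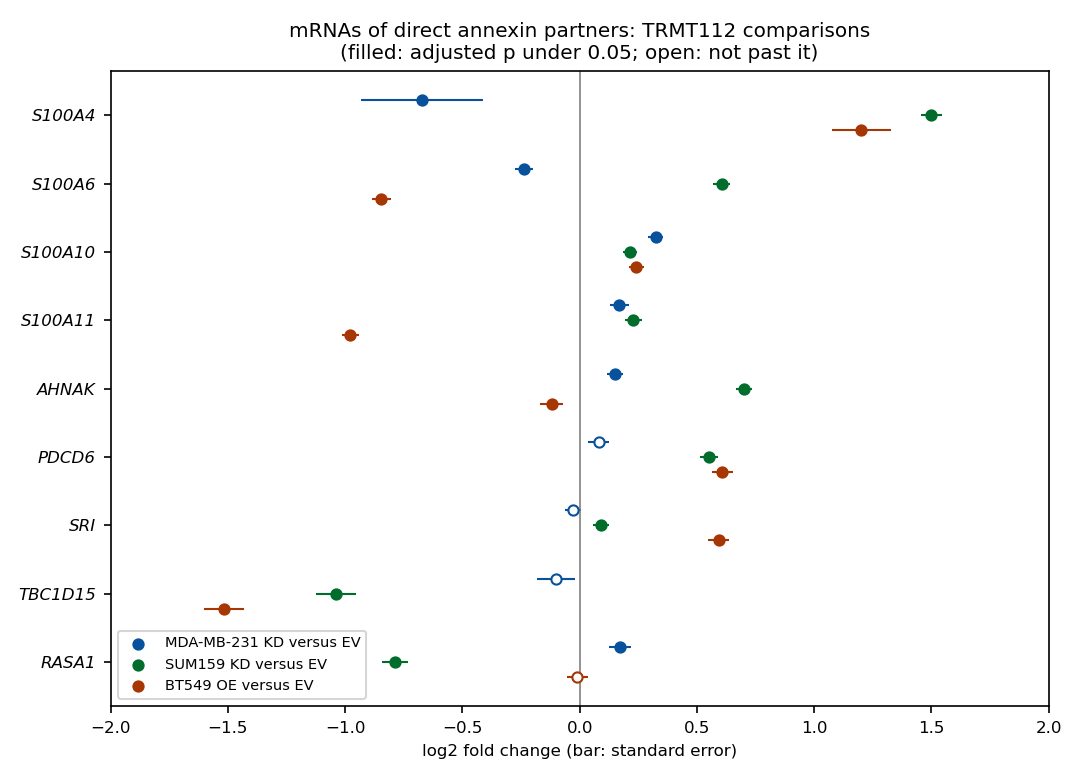
The horizontal axis gives the log2 fold change of 9 mRNAs of annexin-binding proteins in the 3 TRMT112 comparisons, with bars for the SE, filled points where called and open points where not. S100A10 lay to the right of 0 in all 3 comparisons, and TBC1D15 to the left, its MDA-MB-231 point being open.

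Over 80 partner and pathway genes, 69 were tested, and 25 were called higher and 13 lower in MDA-MB-231 KD, 32 and 24 in SUM159 KD, and 26 and 30 in BT549 OE. Over all genes the shares called higher and lower were 21.2% and 16.5%, 28.6% and 31.4%, and 35.6% and 35%, against which the counts of each list that follow are to be read. With scaling by library size only, the balance in MDA-MB-231 KD turned to 16 higher and 22 lower. Of 7 tested genes of cell-surface plasminogen activation, 3 were called higher and 1 lower in MDA-MB-231 KD, 3 and 4 in SUM159 KD, and 1 and 4 in BT549 OE. Among the genes with the smallest p in their direction were the tissue activator PLAT (0.49 ± 0.10) in MDA-MB-231 KD, the urokinase receptor PLAUR (0.98 ± 0.07) and the plasminogen-binding enolase ENO1 (-0.75 ± 0.02) in SUM159 KD, and urokinase PLAU (0.67 ± 0.05) and the inhibitor SERPINE2 (-1.61 ± 0.03) in BT549 OE.

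Of 17 tested genes of plasma membrane repair, 8 were called higher and 3 lower in MDA-MB-231 KD, 8 and 8 in SUM159 KD, and 5 and 10 in BT549 OE. DYSF (dysferlin), a calcium sensor that patches membrane together with annexins, was 52.0 CPM in MDA-MB-231 EV and 159 in KD on average (1.61 ± 0.06), while the ESCRT ATPase VPS4A was lower there (-0.57 ± 0.14). In SUM159 KD the ESCRT subunit CHMP3 was higher (0.90 ± 0.04) and the calpain CAPN2 lower (-0.29 ± 0.03), and in BT549 OE the calpain subunit CAPNS1 was higher (0.51 ± 0.03) and the caveolar CAVIN1 lower (-1.04 ± 0.02).

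The ANXA1 axis of formyl peptide receptors and phospholipase A2 had 11 listed genes, of which 6 were tested. The receptors FPR1, FPR2 and FPR3 had no listed transcript, so the counts do not cover them. Of the tested genes, 0 were called higher and 3 lower in MDA-MB-231 KD, 1 and 2 in SUM159 KD, and 2 and 3 in BT549 OE. The prostaglandin E synthase PTGES was lower in MDA-MB-231 KD (-0.57 ± 0.08) and in BT549 OE (-2.96 ± 0.12) and higher in SUM159 KD (1.09 ± 0.10). The phospholipase PLA2G4A had 24 and 21 counts in SUM159 EV and 0 in both KD libraries, which is at least 8.07-fold lower against a floor of 3 counts per library, and it was higher in BT549 OE (2.78 ± 0.21). PLA2G4C was at 0.64 ± 0.46 in MDA-MB-231 KD and not called.

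The list of glucocorticoid receptor targets, the class to which ANXA1 belongs, had 9 tested genes and included the receptor NR3C1 itself. Of these genes, 3 were called higher and 1 lower in MDA-MB-231 KD, 3 and 4 in SUM159 KD, and 6 and 3 in BT549 OE. The receptor NR3C1 was higher in MDA-MB-231 KD (0.39 ± 0.04), while ERRFI1 was lower there (-0.44 ± 0.03) and higher in SUM159 KD (0.53 ± 0.03). Line and medium cannot be told apart in the levels of these genes, since hydrocortisone was in the SUM159 medium only. FKBP5 averaged 1048 CPM in SUM159 EV against 55.0 in MDA-MB-231 EV and 72.0 in BT549 EV, KLF9 331 against 23.4 and 18.2, and ZBTB16 111 against 0 and 0. PER1 was also highest in SUM159 EV (77.3 against 31.7 and 9.88). In contrast, ERRFI1 (152 against 606 and 278) and SGK1 (2.84 against 29.0 and 40.9) were lowest there, as was ANXA1 (167 against 461 and 286). DUSP1 (159 against 375 and 21.8) and NR3C1 (118 against 83.5 and 163) lay between the other lines. KLF9 and ZBTB16 were chosen after their values were seen and are among the 9 tested genes counted above. TSC22D3 (GILZ) averaged 1530 CPM in SUM159 EV and 947 in KD (-0.69 ± 0.03), but 0.415 CPM in BT549 EV and 18.2 in OE (5.44 ± 0.17). FKBP5 fell from 72.0 to 8.63 CPM in BT549 OE (-3.06 ± 0.08).

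Of 11 tested phosphatidylserine scramblases and flippases, which set how much of the annexin-binding lipid faces outward, 3 were called higher and 2 lower in MDA-MB-231 KD, 6 and 0 in SUM159 KD, and 5 and 4 in BT549 OE. PLSCR1 was lower in MDA-MB-231 KD (-0.25 ± 0.06) and in BT549 OE (-3.83 ± 0.05), TMEM30A was higher in MDA-MB-231 KD (0.20 ± 0.04), and the flippase ATP8B1 was higher in SUM159 KD (1.85 ± 0.08) and BT549 OE (1.76 ± 0.06). ATP8A1 was at -1.34 ± 0.59 in SUM159 KD and not called. Of 10 tested copines and extended synaptotagmins, which bind membranes by calcium through C2 domains in place of the annexin core, 4 were called higher and 1 lower in MDA-MB-231 KD, 4 and 4 in SUM159 KD, and 3 and 2 in BT549 OE. CPNE2 was higher in MDA-MB-231 KD (0.42 ± 0.04) and BT549 OE (1.60 ± 0.05), ESYT2 in SUM159 KD (0.68 ± 0.04), CPNE3 was lower in MDA-MB-231 KD (-0.27 ± 0.06), CPNE1 in SUM159 KD (-0.37 ± 0.05) and CPNE7 in BT549 OE (-2.57 ± 0.06).

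Between EV groups most members differed, as did most genes. SUM159 EV against MDA-MB-231 EV had 2 members called higher and 5 lower, beside 39.2% and 36.4% of all genes. BT549 EV against MDA-MB-231 EV had 3 higher and 6 lower, beside 39.1% and 40.4%, and BT549 EV against SUM159 EV had 4 higher and 4 lower, beside 37.7% and 40.7%. The lower call of ANXA8 in BT549 EV against MDA-MB-231 EV rests on counts of 2 and 0 against 7 and 9 and was lost without MDA-MB-231 EV replicate 2 (edgeR adjusted p = 0.0639) or BT549 EV replicate 2 (edgeR adjusted p = 0.136). The lower call of ANXA5 in SUM159 EV against MDA-MB-231 EV was lost without MDA-MB-231 EV replicate 2 (edgeR adjusted p = 0.0514). ANXA6 was 4.14-fold lower in SUM159 EV than in MDA-MB-231 EV and 5.65-fold lower in BT549 EV. ANXA5 was 4.27-fold and ANXA11 2.83-fold higher in BT549 EV than in MDA-MB-231 EV. ANXA4 and ANXA11 were close in SUM159 EV and MDA-MB-231 EV, with log2 differences of -0.05 ± 0.05 and 0.05 ± 0.04, and ANXA7 in BT549 EV and SUM159 EV, with 0.02 ± 0.04. These values depend on the scaling. ANXA11 changed sign with the other scalings, and ANXA7 was called higher with RLE size factors and with DESeq2 (0.10 in each) and lower with library size only (-0.19). These 3 comparisons share EV libraries with one another and with the KD and OE comparisons.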

How the data were processed

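Polysome-associated RNA of MDA-MB-231, SUM159 and BT549 cells was sequenced in 12 libraries, grouped by their labels. The authors used Trimmomatic for trimming, HISAT2 for alignment to GRCh38, SAMtools for removing duplicates and Partek for their own analysis. The counting tool, annotation and strand setting are not given in the sources used here, and the labels name poly(A) enrichment where the methods name rRNA depletion. The values deposited by the authors are expected counts, not normalized, for each Ensembl transcript, and 5.08% of rows hold a missing mark in the 8 MDA-MB-231 and SUM159 columns, read as 0 (no annexin transcript is marked). For that mark, the unit of those columns was recorded as other.

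Transcripts were matched to GENCODE 44 (79.6%, holding 99.2% to 99.4% of the counts), summed per symbol, rounded and tested with edgeR 4.0.16 (R 4.3.3) by quasi-likelihood in 1 model of 6 group means (filterByExpr, TMM, 6 residual degrees of freedom, common dispersion 0.000835, Benjamini-Hochberg over 16538 genes, called under 0.05). The test was checked on simulated counts. SE is the log2 fold change over the root of F. TPM divided expected counts by transcript length. Ratio intervals are exact (95%). Python 3.11.15, pandas 2.3.3, numpy 2.4.6, scipy 1.17.1 and matplotlib 3.10.9 were used.

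The members and gene lists were chosen with earlier results of these data known. Named were the members, other annexin symbols, the partners, TRMT112, the gene with the smallest p per other list, comparison and direction, and, for each member, the 2 genes with the highest Pearson correlation of log2 CPM (prior count 1) where the mean count reached 50. Alternatives were other scalings, DESeq2 1.42.0, other filters, a log2 fold change of at least 1, a replicate block, each line alone, the longest transcript, added copies and leaving out each library. Protein sequences were not used here, and a pair of genes so chosen is not reported here.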

Additional observations from a re-analysis of the deposited data

Results flagged for a closer look

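The effect of TRMT112 KD differed between MDA-MB-231 and SUM159 for 8 of the 9 tested annexins by the contrast of both effects in edgeR's model, where the same contrast called 50.9% of all genes tested. The difference, MDA-MB-231 minus SUM159 on the log2 scale, was 0.82 for ANXA1, 1.70 for ANXA2, 0.66 for ANXA4, 0.91 for ANXA5, 0.47 for ANXA6 and 0.77 for ANXA7, each of which rose with KD in MDA-MB-231 but fell with it in SUM159. It was 6.61 for ANXA8, which rests on 16 counts in the MDA-MB-231 EV group, and -1.07 for ANXA3, which rests on 76 counts in the SUM159 EV group and was higher with KD in both lines. TRMT112 itself fell by 1.23 in MDA-MB-231 KD and by 0.76 in SUM159 KD on the log2 scale, a difference of -0.47 ± 0.06. The part of this unequal knockdown in the differences was not tested.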

How the results depend on the processing

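Of 168 counts of calls and summed levels under alternatives other than leaving out a library, 150 stayed close to the reported ones, as did 168 of 168 with a library left out. Close was a loose rule for counts of calls. It took in the fall from 9 to 6 members called higher in MDA-MB-231 KD with scaling by library size only. Of the single-gene folds, 42 lost their call, 9 gained one and 4 changed sign under the former, and 7, 4 and 6 with a library left out. Adding a log2 fold change of at least 1 left 1 member higher in MDA-MB-231 KD and 1 higher and 2 lower in SUM159 KD. It left 0 higher and 2 lower in BT549 OE. In the difference of the KD effects it left 2 higher, and ANXA3 stayed lower. At that threshold the share of all genes called in either direction was 3.2%, 15.7%, 31.3% and 15% in the same order. Between EV groups the threshold left 1 higher and 3 lower in SUM159 against MDA-MB-231, beside 36.9% of all genes in either direction. BT549 against MDA-MB-231 kept 3 lower, beside 45.4%, and BT549 against SUM159 kept 2 lower, beside 43.7%. ANXA4, ANXA5 and ANXA11 stayed higher in BT549 EV against each of the other lines. Scaling by library size only gave 16 partner and pathway genes higher and 22 lower in MDA-MB-231 KD, shifted the median of all genes by -0.31 in BT549 EV against MDA-MB-231 EV and by -0.21 against SUM159 EV, and moved the share of higher genes among those called in BT549 EV against MDA-MB-231 EV from 49.1% to 38.4%. With the longest transcript of each gene, the summed TPM was 3245 and 4156 in MDA-MB-231 EV and KD, 2470 and 1280 in SUM159 EV and KD, and 3489 and 2923 in BT549 EV and OE, ANXA5 then leading ANXA2 in BT549 OE. Sign changes were limited to values that were not called in the reported fit: ANXA11 in SUM159 EV against MDA-MB-231 EV (-0.016 with RLE size factors, -0.016 with DESeq2, -0.055 with library size only) and ANXA7 in BT549 EV against SUM159 EV (called lower at -0.19 with library size only, and higher at 0.10 with RLE size factors and with DESeq2), and, with each library left out in turn, ANXA4 (-0.10 to 0.010) and ANXA2P2 (-0.15 to 0.48) in SUM159 EV against MDA-MB-231 EV, ANXA9 in the difference of the KD effects (-0.90 to 0.22), ANXA7 in BT549 EV against SUM159 EV (-0.0045 to 0.049, and -0.0042 without BT549 EV replicate 2) and the fitted value of ANXA8 in BT549 OE (-4.23 to 0), which rests on 2 counts. The cause was not tested. Leaving out each library in turn gave 4 to 5 members lower in SUM159 EV against MDA-MB-231 EV, 5 to 6 lower in BT549 EV against MDA-MB-231 EV, 8 to 9 members higher in MDA-MB-231 KD, 2 higher and 7 lower in SUM159 KD, 2 higher and 6 lower in BT549 OE, and 7 to 8 higher in the difference of the KD effects, where ANXA11 was called without MDA-MB-231 EV replicate 1. Replicate numbers are shared by the groups only as numbers: deviations of same-numbered libraries correlated at 0.02 in MDA-MB-231, -0.01 in SUM159 and 0.03 in BT549. With the replicate block, 9 members were called higher in MDA-MB-231 KD, 2 higher and 7 lower in SUM159 KD, and 2 higher and 6 lower in BT549 OE. In the reported fit, the share of all genes called in either direction was 37.7%, 60.1% and 70.6% in the same order. Depth limits ANXA3 in BT549, ANXA8 in BT549 and MDA-MB-231, ANXA9 and ANXA10.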

Other observations

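For each tested annexin, the genes whose log2 CPM followed it most closely over the 12 libraries, by Pearson's r where the mean count reached 50, were PSMC1 (0.990) and ACBD3 (0.989) for ANXA1, VDAC1 (0.972) and MAP4K3 (0.969) for ANXA2, SERTAD2 (0.999) and FRMD6 (0.996) for ANXA3, MAD1L1 (0.987) and IFIT5 (0.980) for ANXA4, and NUDCD3 (0.991) and OGFR (0.991) for ANXA5. They were CTC1 (0.994) for ANXA6, LBR (0.987) and SFI1 (0.987) for ANXA7, SUSD6 (0.983) and ABCG1 (0.983) for ANXA8, and PER3 (0.993) and FAM50A (0.992) for ANXA11. The best match of ANXA2 was the loosest of these. No member was the closest match of another. The libraries fall into 3 cell lines of 4, and the values join differences between and within lines, were picked as the highest over all such genes, and are given with no test.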
